A study of Mus musculus with 29 samples.

Results

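Fibroblast growth factor (FGF) signalling was examined at 10 genes in maps of where Atoh1, Pou4f3 and Gfi1 sat on DNA. The genes were the ligands Fgf3, Fgf8, Fgf10 and Fgf20, the receptors Fgfr1, Fgfr2 and Fgfr3, and the intracellular inhibitors Spry1, Spry2 and Spry4, 10 of the 22367 protein-coding genes in the annotation. A binding summit counted for a gene when it lay in the gene body or within 50 kb of it in the mouse build mm9. The 10 windows covered 1.37 Mb and held 160 of the kept summits of 9 peak lists, 79 of Atoh1, 78 of Pou4f3 and 3 of Gfi1.

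The maps came from ChIP-seq (chromatin immunoprecipitation followed by sequencing) on mouse embryonic stem cell lines made from A2loxCre, in which doxycycline switches on a transgene. The lines expressed Atoh1 (iAtoh1), Pou4f3 (iPou4f3), Gfi1 with Atoh1 (iG+A), Gfi1 with Pou4f3 (iG+P), Pou4f3 with Atoh1 (iP+A), or all 3 factors (iGPA). Every line, as embryoid bodies, received 2 µg/ml doxycycline from day 4 for 48 h and was collected on day 6, so no list came from cells without a transgene. Atoh1 was pulled down through a FLAG tag in 4 lines, Pou4f3 through a MYC tag in 4 lines and Gfi1 with its own antibody in iGPA. The 17 ChIP and 12 input libraries gave 9 lists, each made by the authors from merged libraries, 2 per ChIP group except for the single Gfi1 library. The values therefore have no spread between replicates and no test was possible. The lists held 15568 to 32632 kept summits for the tagged factors and 3012 for Gfi1, so a gene without a summit may still be bound below the calling threshold. Embryoid bodies hold several cell types, and read depth was not used here. The design text of the series gives replicates of a line as different clones, but it speaks of a set of samples with untreated controls, and whether this holds for the ChIP libraries was not stated.

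FGF ligands are secreted proteins that bind receptor tyrosine kinases at the cell surface and switch on the Ras and MAP kinase chain, and Sprouty proteins, themselves induced by the pathway, damp that chain. In the inner ear the pathway acts more than once: Fgf3, Fgf8 and Fgf10 take part in forming the otic placode, Fgf20 and Fgfr1 are needed for the sensory progenitors of the cochlea, and Fgf8 from inner hair cells acts through Fgfr3 on the neighbouring pillar cells. Atoh1, a basic helix-loop-helix factor, binds E-boxes, Pou4f3 is a POU homeodomain factor that binds AT-rich DNA, and Gfi1 is a zinc finger repressor. All 3 are needed for hair cells to form or survive.

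Sequences are shown for the sites that carry the results: the site with the highest fold enrichment of each factor, then the named sites in the most lists and, among equals, of highest fold. The named Spry4 site, and stretches that overlap an exon, are not printed. Each is the plus strand of mm9, the 250 bp centred on the strongest summit. Capitals mark the E-boxes CAGCTG and CAGATG, read on both strands, and matches to ATAATTAAT with 1 mismatch, the pattern searched for the Pou4f family. The first site was the strongest Pou4f3 site and the strongest Gfi1 site, the second the strongest Atoh1 site, the next pair held Atoh1 in every Atoh1 list, and the last pair were Pou4f3 sites of ligands.
Fgfr1 upstream, chr8:26594218-26594467: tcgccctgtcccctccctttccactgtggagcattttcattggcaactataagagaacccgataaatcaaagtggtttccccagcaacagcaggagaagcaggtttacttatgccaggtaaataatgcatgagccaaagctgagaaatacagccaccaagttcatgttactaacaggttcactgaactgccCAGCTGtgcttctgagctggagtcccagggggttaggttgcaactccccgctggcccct
Spry1 downstream, chr3:37565673-37565922: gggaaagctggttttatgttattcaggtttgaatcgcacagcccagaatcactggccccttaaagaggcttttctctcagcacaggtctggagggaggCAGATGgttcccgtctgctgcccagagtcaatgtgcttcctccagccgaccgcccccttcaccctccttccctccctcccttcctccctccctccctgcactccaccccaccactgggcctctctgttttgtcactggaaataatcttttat
Fgf3 upstream, chr7:151997456-151997705: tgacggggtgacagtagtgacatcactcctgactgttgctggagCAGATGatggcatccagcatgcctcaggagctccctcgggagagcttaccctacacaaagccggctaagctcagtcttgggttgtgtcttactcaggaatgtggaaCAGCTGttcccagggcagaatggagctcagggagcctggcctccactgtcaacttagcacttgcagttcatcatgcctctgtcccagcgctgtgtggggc
Fgfr2 intron, chr7:137395747-137395996: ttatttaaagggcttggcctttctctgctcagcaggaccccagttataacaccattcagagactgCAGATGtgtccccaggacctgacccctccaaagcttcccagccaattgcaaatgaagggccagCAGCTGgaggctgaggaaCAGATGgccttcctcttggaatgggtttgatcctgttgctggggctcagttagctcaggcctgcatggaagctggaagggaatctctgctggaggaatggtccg
Fgf8 downstream, chr19:45803395-45803644: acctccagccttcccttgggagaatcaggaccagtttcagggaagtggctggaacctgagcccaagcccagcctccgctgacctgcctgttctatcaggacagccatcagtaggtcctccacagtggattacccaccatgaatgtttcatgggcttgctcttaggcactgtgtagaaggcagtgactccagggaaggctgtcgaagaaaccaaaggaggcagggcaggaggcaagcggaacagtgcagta
Fgf20 downstream, chr8:41345510-41345759: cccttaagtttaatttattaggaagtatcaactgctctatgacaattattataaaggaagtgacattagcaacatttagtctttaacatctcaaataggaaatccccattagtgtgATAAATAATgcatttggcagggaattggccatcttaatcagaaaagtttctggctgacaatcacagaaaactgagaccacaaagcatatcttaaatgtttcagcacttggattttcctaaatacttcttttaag
The Fgfr1 stretch held 1 E-box and no match to the Pou4f pattern. The Spry1 stretch held 1 E-box, Fgf3 held 2 and Fgfr2 held 3. The Fgf20 stretch held 1 Pou4f match, ATAAATAAT, and the Fgf8 stretch held neither pattern.

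Most of the 10 genes had summits of both Atoh1 and Pou4f3. In the Atoh1 lists, a kept summit was present at 8 of the 10 genes in iAtoh1 and 9 in iG+A against 8 in iP+A and 8 in iGPA. In the Pou4f3 lists, the counts were 9 in iPou4f3 and 9 in iG+P, then 9 in iP+A and 7 in iGPA, and Gfi1 had summits at 2 genes in iGPA. Windows of this size hold a summit at most genes in the tagged lists. The share of all protein-coding genes with a kept summit, the background for these counts, was 53.1%, 65.7%, 62.6% and 72.2% in the Atoh1 lists in the same order. It was 72.8%, 76.6%, 58.7% and 63.1% in the Pou4f3 lists and 23.2% in the Gfi1 list. The 10 genes were above this share in the 8 lists of the tagged factors and below it for Gfi1, and with 10 genes each gene counts for 10 percentage points.

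**Figure D1:**
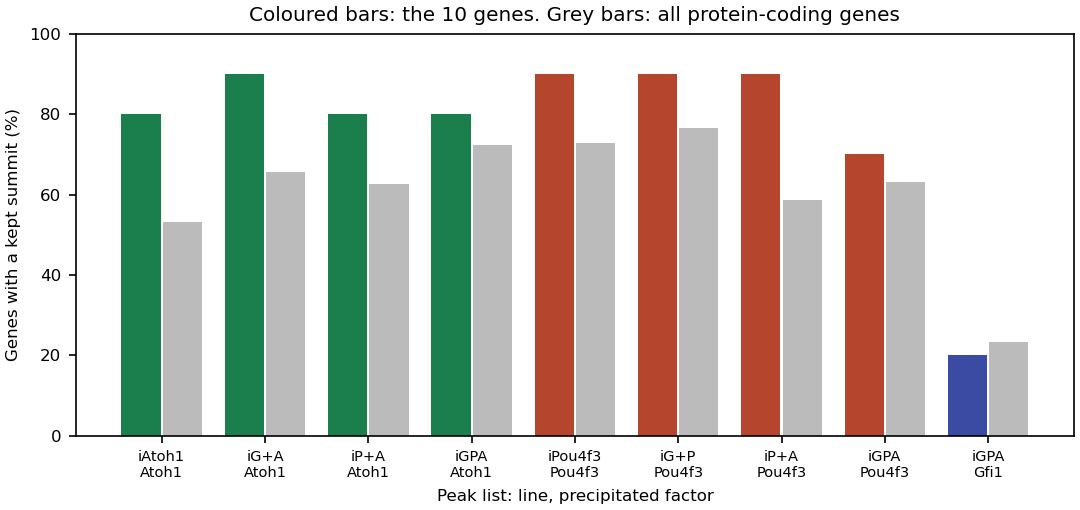
Percentage of genes with a kept summit in the gene body or within 50 kb (vertical axis) in each of the 9 peak lists (horizontal axis), for the 10 FGF pathway genes (coloured bars) and for all 22367 protein-coding genes (grey bars). The coloured bars stand above the grey ones in the 8 Atoh1 and Pou4f3 lists, and below in the Gfi1 list (2 of 10 genes against 23.2%).

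Set against the length of each list, the shares of summits near the 10 genes had overlapping intervals. Per 10000 kept summits, Atoh1 had 8.99 in iAtoh1 (exact Clopper-Pearson 95% interval 4.92 to 15.1, 14 summits) and 12.2 in iG+A (7.89 to 18, 25 summits), against 10.0 in iP+A (6.04 to 15.7, 19 summits) and 8.01 in iGPA (4.96 to 12.2, 21 summits). Pou4f3 had 9.36 in iPou4f3 (5.8 to 14.3, 21 summits) and 8.89 in iG+P (5.95 to 12.8, 29 summits), then 8.2 in iP+A (4.48 to 13.7, 14 summits) and 7.47 in iGPA (4.08 to 12.5, 14 summits). Gfi1 had 9.96 (2.05 to 29.1, 3 summits). The intervals cover counting error alone. The mean number per gene was 1.4 to 2.9 in the tagged lists, beside 1.37 to 2.7 over all protein-coding genes, and it was below that of all genes for Atoh1 in iGPA (2.1 against 2.69) and iAtoh1 (1.4 against 1.48) and for Gfi1 (0.3 against 0.316). Per Mb of window, the 10 genes together, with Fgfr1 included, were higher in each of the 9 lists. Atoh1, for example, had 10.2 against 7.88 in iAtoh1, 18.2 against 10.7 in iG+A and 15.3 against 13.7 in iGPA. The Fgfr1 window alone held 50 of the 160 summits. Without it, the summits numbered 10, 18, 11 and 14 in the Atoh1 lists in the same order. They numbered 16, 21, 10 and 9 in the Pou4f3 lists and 1 in the Gfi1 list. The values per Mb without it were not computed, so the higher values in each list are shown only with Fgfr1 included.

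The summits were spread unevenly over the genes. Fgfr1 had 50 of the 160 summits and was the 1 member with a summit in all 9 lists. Fgf8, Spry1 and Spry4 had summits in 8 lists each, Fgf10, Fgfr3 and Spry2 in 7, Fgfr2 in 6, Fgf3 in 5 and Fgf20 in 4. Over all protein-coding genes, 11.1% had a summit in all 9 lists, 20.0% in 8 and 14.7% in 7, beside 1, 3 and 3 of the 10. At 7 genes all 4 Atoh1 lists had a summit (42.6% of all protein-coding genes), and at 7 genes all 4 Pou4f3 lists had one (47.3%), with Fgf8, Fgfr1, Spry1 and Spry4 in both groups (26.3%). Window size and neighbours differed too, and their part in these counts was not tested. The Fgf10 window was 222 kb, that of Fgfr2 204 kb and that of Fgfr1 162 kb, against 105 to 129 kb for the other 7, and 6 of the 10 windows held another protein-coding gene. Per 100 kb, Fgfr1 had 11.1 distinct sites and the other 9 genes 2.32 to 7.63.

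**Figure D2:**
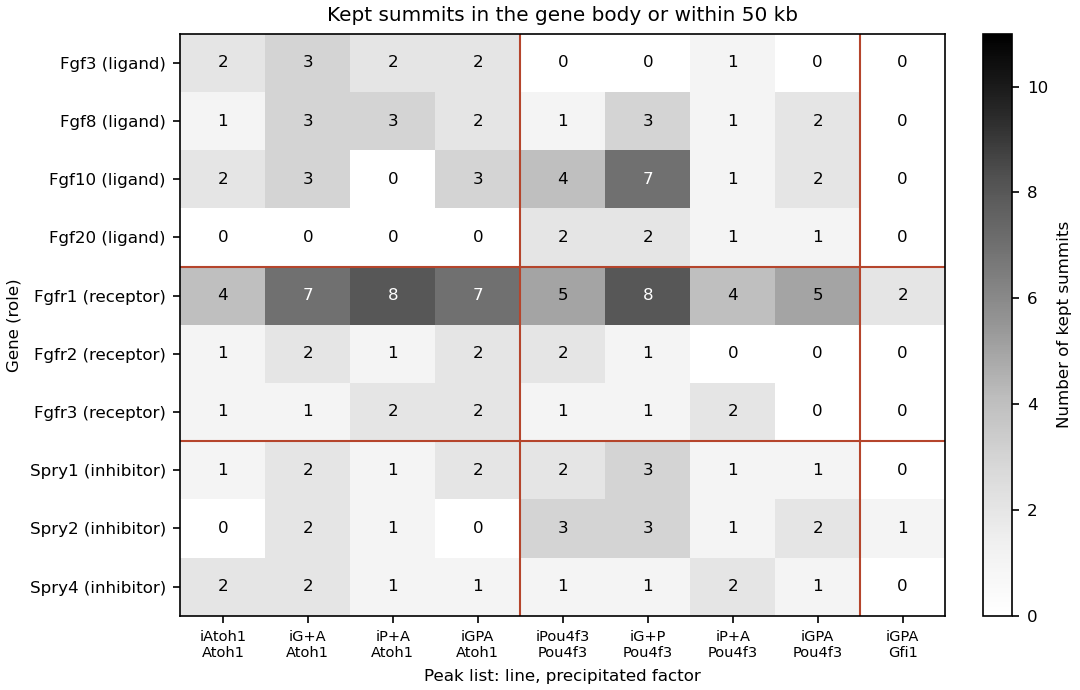
Number of kept summits (figures in the cells and grey shade) in the gene body or within 50 kb of each of the 10 genes (rows, by role) in each of the 9 peak lists (columns). Fgfr1 carries 2 to 8 summits in every list, Fgf20 has none in the 4 Atoh1 lists, and Fgf3 has 1 in the 4 Pou4f3 lists together.

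Summits within 300 bp windows that touched were joined into 75 sites over the 10 genes. Of these, 28 held Atoh1 alone, 36 Pou4f3 alone, 2 Gfi1 alone, 8 Atoh1 and Pou4f3, and 1 all 3 factors, and 35 sites were in 1 list alone. Factors were pooled over all lines, so Atoh1 and Pou4f3 at 1 site were not always called in the same line. At the strongest Spry2 site, for example, Atoh1 was called in iG+A and Pou4f3 in iG+P. Within iGPA, 2 sites held more than 1 factor. Sites at gene starts were a minority, with 14 within 1000 bp of an annotated start of their own gene and 51 over 10000 bp from each of its starts. For 41 sites the nearest annotated start of any gene was that of the member, and 34 sites lay between genes. The windows were 105 to 222 kb long, and shares over the genome were not computed for these classes of the 75 sites. The counts therefore describe the windows and do not set the 10 genes apart. The median fold enrichment of these 160 summits was 3.25, with a range of 2.37 to 31.5, and the fragments counted under a summit, recovered from the fold and the −log10 p, ran from 17 to 215. In each tagged list the median fold near the 10 genes was close to that of the whole list, for example 3.17 against 3.18 for Atoh1 in iAtoh1 and 4.13 against 4.08 for Pou4f3 in iGPA.

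**Figure D3:**
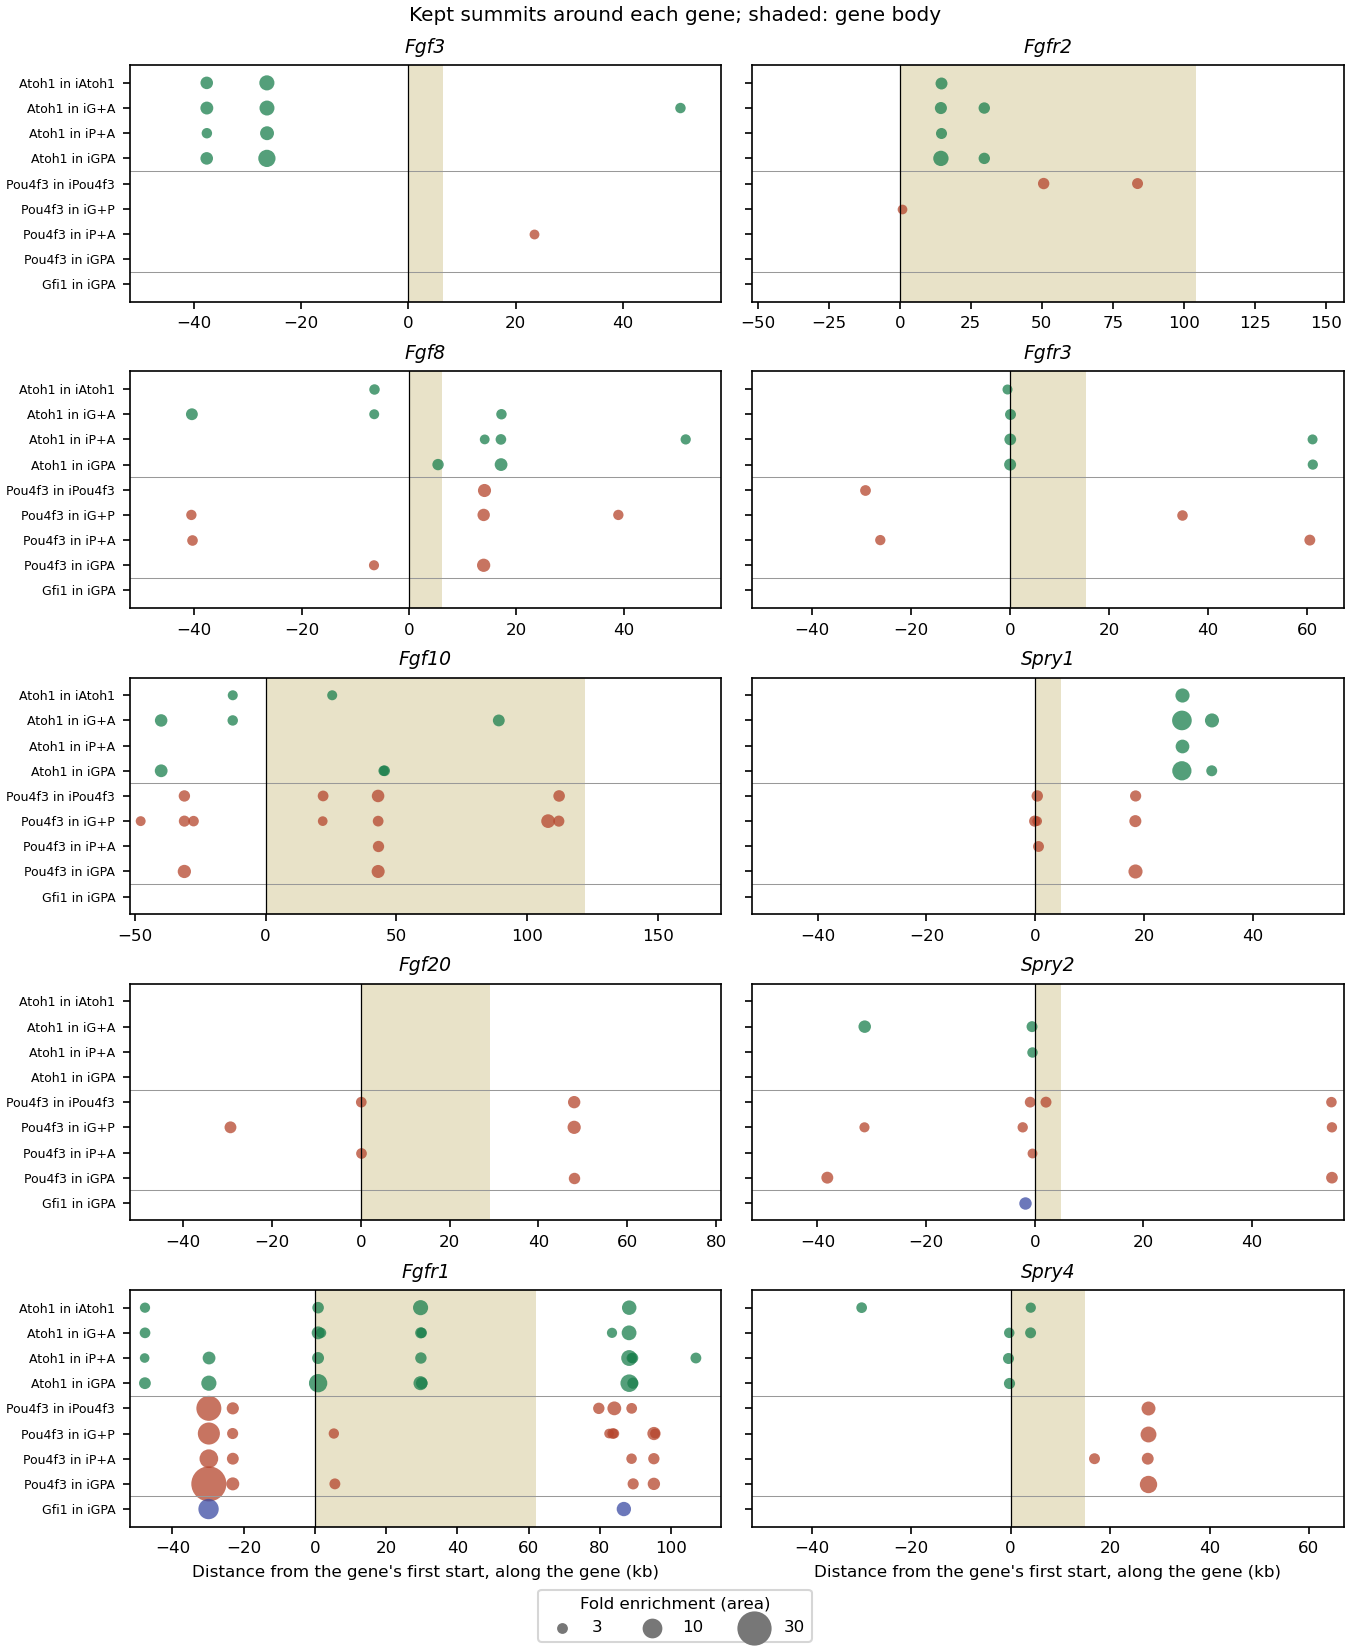
Kept summits around each of the 10 genes by distance from the gene's first annotated start, along the direction of transcription (horizontal axis, kb), in each peak list (rows; green Atoh1, red Pou4f3, blue Gfi1). Dot area is proportional to the authors' fold enrichment and shading is the gene body. Columns of 4 dots of 1 colour are sites found in every list of that factor, such as Atoh1 upstream of Fgf3 and Pou4f3 beyond the end of Spry4.

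Among the ligands, Fgf3 and Fgf20 were near opposites. Fgf3, a ligand of hindbrain and otic tissue, had 2, 3, 2 and 2 Atoh1 summits in iAtoh1 and iG+A, then iP+A and iGPA, and its 1 Pou4f3 summit, in iP+A, lay in a coding exon of the neighbouring ligand gene Fgf4. Both Fgf3 sites found in every Atoh1 list were intergenic. The stronger, at chr7:151997577-151997606, was 26407 bp upstream of the start of Fgf3 and had a fold enrichment of 5.86 in iAtoh1 and 5.74 in iG+A, against 4.95 in iP+A and 7.63 in iGPA. These values were at percentiles 94.8, 92.1, 88.7 and 92.3 of the fold in their own lists, on 47, 42, 45 and 61 fragments. The weaker, at chr7:151986354-151986382, had 4.03, 4.27, 2.8 and 4.06 in the same order. Both were lowest in iP+A. The stretch printed above for Fgf3 has the middle of its CAGCTG 28 bp from the iGPA summit.

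Fgf20, the ligand tied to cochlear sensory progenitors, had no Atoh1 summit in any of the 4 lists and 2, 2, 1 and 1 Pou4f3 summits in iPou4f3 and iG+P, then iP+A and iGPA. Among all called peaks, with those left out of the summit lists, the number of Atoh1 peaks in this window was also 0. This was not particular to Fgf20: Fgf7, Fgf13, Fgf16 and Fgf17 also had Pou4f3 summits and no Atoh1 summit in any list. The share of all protein-coding genes without an Atoh1 summit in any list was not computed. The strongest site of Fgf20, at chr8:41345631-41345644, was intergenic, 26672 bp downstream of the nearest start of the gene. It had a fold of 3.92 in iPou4f3, 4.49 in iG+P and 3.35 in iGPA, with no summit in iP+A. A second site, at chr8:41393555-41393592, had 2.93 in iPou4f3 and 2.94 in iP+A. It lay 93 bp after the first annotated start of Fgf20, in a coding exon that the annotation gives to both Fgf20 and Efha2. That start is not the one nearest the stronger site. The annotated body of Fgf20 was 29.2 kb, against 7.79 kb in RefSeq, so this site may not lie at the start used in RefSeq. The first site was at percentiles 68.7, 85.8 and 22.7 of the fold in its lists.

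Fgf10, a ligand of the otic placode and of many budding epithelia, had 4, 7, 1 and 2 Pou4f3 summits and 2, 3, 0 and 3 Atoh1 summits. No site of Fgf10 held both factors. An intronic site at chr13:119501621-119501650, 1856 bp upstream of a further annotated start of Fgf10, was in all 4 Pou4f3 lists. It had 4.04 in iPou4f3 and 2.96 in iG+P, then 3.28 in iP+A and 4.37 in iGPA. The highest fold at Fgf10, 4.82 for Pou4f3 in iG+P at chr13:119566667, came from an intronic short tandem repeat with a unit of 4 bp. It was the 1 site of the 75 in such a repeat, and a called Atoh1 peak of iAtoh1 that the authors did not keep lay there too.

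Fgf8, the ligand that inner hair cells make, had 1, 3, 3 and 2 Atoh1 summits and 1, 3, 1 and 2 Pou4f3 summits. Its strongest site, chr19:45803321-45803520, lay between genes 13654 bp downstream of the start and had Pou4f3 at 4.4 in iPou4f3, 3.94 in iG+P and 4.51 in iGPA. In iP+A, the site had no Pou4f3 summit and had Atoh1 at 2.47, at percentile 4.03 of that list. An Atoh1 site at chr19:45800204-45800305 was absent from iAtoh1 and had 4.18 in iGPA, 2.9 in iP+A and 2.8 in iG+A. Of the 7 sites at Fgf8, those at chr19:45823889-45823932 and chr19:45857739-45857927 lay within 1000 bp of starts of Gm15491 and Mgea5, so they may belong to those genes.

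Among the receptors, Fgfr1 had the site of highest fold of the 10 genes, upstream of its start, while the highest folds at Fgfr2 (6.03) and Fgfr3 (3.69) were below those at Spry1, Spry4 and Fgf3. Fgfr1, the receptor of cochlear progenitors, had 4, 7, 8 and 7 Atoh1 summits, 5, 8, 4 and 5 Pou4f3 summits and 2 Gfi1 summits. The site at chr8:26594259-26594399, 29783 bp upstream of the start and between genes, was in 7 of the 9 lists and was the 1 site of the 75 in 5 or more. Pou4f3 had a fold of 16.0 in iPou4f3 on 134 fragments and 12.5 in iG+P on 113, against 8.94 in iP+A on 78 and 31.5 in iGPA on 215. Those values were at percentiles 99.2, 99.3, 98.8 and 99.7, so the site ranked near the top of every Pou4f3 list. Gfi1 had 10.6 in iGPA, on 47 fragments and at percentile 94.2 of its list. Atoh1 had 4.2 in iP+A and 5.91 in iGPA, at percentiles 81.6 and 85.9, on 38 and 47 fragments, and no called peak in iAtoh1 or iG+A. Atoh1 was thus called there in both lines that carry Pou4f3 as well and in neither line that lacks it. Whether the FLAG signal depends on Pou4f3 was not tested, as each line has 1 merged list.

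The summits of the 3 factors at this site did not fall on 1 base. The 4 Pou4f3 summits lay within 3 bp of each other, at chr8:26594343 to chr8:26594346. The Atoh1 summit was 3 bp from that of Pou4f3 in iGPA and 55 bp from it in iP+A, where it stood at chr8:26594399, beside the CAGCTG whose middle is 69 bp from the iGPA Pou4f3 summit. The Gfi1 summit lay 84 bp away on the other side. Neither AATCACAGC nor AATCACTGC, the letters searched for Gfi1, was found within the 250 bp around it.

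**Figure D4:**
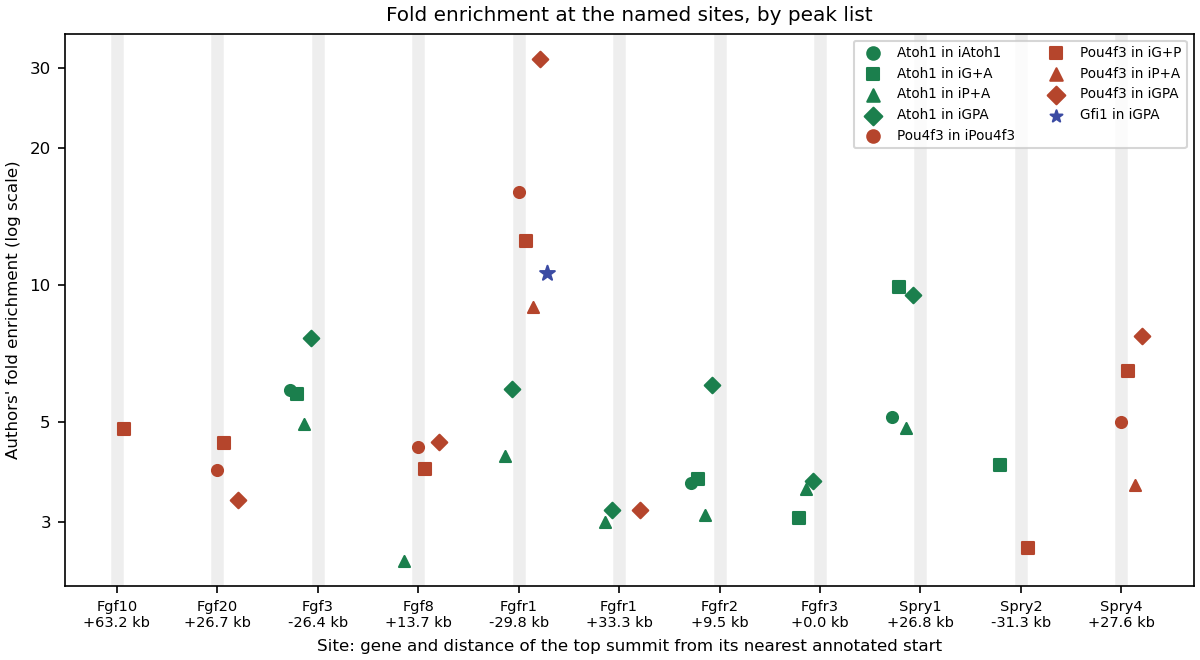
Authors' fold enrichment on a log axis (vertical) at the 11 named sites (horizontal axis, with the distance of the strongest summit from the nearest annotated start of its gene), 1 symbol per peak list that holds the site (green Atoh1, red Pou4f3, blue star Gfi1; no error bars, since each list is 1 merged sample). The Fgfr1 site at -29.8 kb carries 7 symbols, with Pou4f3 between 8.94 and 31.5, and the Spry1 site carries the highest Atoh1 folds, 9.88 and 9.48.

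Atoh1 was also called elsewhere in the Fgfr1 window. The 4 sites of that window in every Atoh1 list included an intronic one 891 bp after the start, chr8:26624997-26625024, with 3.42 in iAtoh1 and 4.27 in iG+A, then 3.66 in iP+A and 8.61 in iGPA. A further intronic site, chr8:26653758-26654110, had 5.86, 3.2, 3.33 and 5.05, and it held 2 summits each in iG+A and iGPA. Another, chr8:26712306-26712348, had 5.37, 5.61, 6.45 and 7.88, but it lay in a UTR of Whsc1l1, 275 bp from a start of that gene and beyond the end of Fgfr1. The last, chr8:26576321-26576426, was weak, with 2.37 to 3.57. A second site with more than 1 factor in iGPA, chr8:26713364-26713455, had Atoh1 at 3.2 and Pou4f3 at 3.2 and lay in an intron of Whsc1l1, 664 bp from a start. The second Gfi1 summit, at chr8:26710842 with a fold of 5.28, was between genes 1231 bp from a start of Whsc1l1. Summits of the Fgfr1 window near Letm2 and Whsc1l1 cannot be assigned to Fgfr1 by position.

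Fgfr2, the receptor for Fgf3 and Fgf10 in the otic epithelium, had 1, 2, 1 and 2 Atoh1 summits and 2, 1, 0 and 0 Pou4f3 summits. An intronic site, chr7:137395872-137395885, was in every Atoh1 list, with 3.66 in iAtoh1 and 3.74 in iG+A, against 3.12 in iP+A and 6.03 in iGPA, on 29, 27, 28 and 48 fragments. Its 4 summits lay among 3 E-boxes, of which the CAGCTG was 6 bp from the iGPA summit. The iGPA fold stood above the other 3, as it did at the start of Fgfr1, though the iGPA list had the higher median fold, 3.45 against 3.12 to 3.2. Each of the 3 Pou4f3 sites of Fgfr2 was in 1 list.

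Fgfr3, the receptor of pillar and Deiters' cells, was bound by Atoh1 at its start. The site at chr5:34064352-34064437, in the UTR 35 bp after the start, had 3.69 in iGPA, 3.55 in iP+A and 3.07 in iG+A, and iAtoh1 had a separate summit 644 bp upstream, with 2.57. Pou4f3 had 1, 1, 2 and 0 summits, each at a site of its own, and none was within 1000 bp of the start of Fgfr3. No Fgfr3 site held both factors.

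Of the inhibitors, Spry1 carried the strongest Atoh1 binding of the 10 genes. The site chr3:37565765-37565798, between genes and 26796 bp downstream of the start, had a fold of 5.13 in iAtoh1 and 9.88 in iG+A, then 4.84 in iP+A and 9.48 in iGPA, on 41, 73, 44 and 76 fragments. The values were higher in both lines that carry Gfi1 than in both that do not, and with 2 lists on each side, of different local backgrounds, this was not tested. A further Atoh1 site, chr3:37571273-37571318, was called in iG+A at 5.07 and in iGPA at 3.08, again the lines with Gfi1, though Gfi1 itself had no summit at Spry1. Pou4f3 had a site of its own at chr3:37557244-37557294, with 3.21 in iPou4f3, 3.72 in iG+P and 5.1 in iGPA, and a site in the UTR near the start, chr3:37539210-37539322, with 3.33, 2.41 and 3.06 in iPou4f3, iG+P and iP+A.

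Spry4 was the counterpart with Pou4f3. Its site chr18:38733314-38733383, between genes and 27567 bp downstream of the start, had a fold of 4.99 in iPou4f3 and 6.46 in iG+P, against 3.62 in iP+A and 7.72 in iGPA and no Atoh1. Atoh1 had a site near the start, chr18:38761209-38761366, with 3.2 in iGPA, 3.12 in iP+A and 2.8 in iG+A, which lay 34 bp from a start of Arhgap26. Spry2, which limits the number of pillar cells, had 0, 2, 1 and 0 Atoh1 summits and 3, 3, 1 and 2 of Pou4f3. Its strongest summit was Atoh1 in iG+A at chr14:106327328, with 4.01, 31292 bp upstream of the gene, and a Pou4f3 summit of iG+P with 2.63 was in the same site. Gfi1 had a summit at chr14:106297816, 1780 bp upstream of Spry2, with 3.96 on 17 fragments, the lowest fragment count of the 160 summits together with 1 summit at Fgf8.

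Sites were compared between the lines of each factor. Of the 37 Atoh1 sites near the 10 genes, 8 were in all 4 lists (21.6%, beside 10.4% of the 45175 Atoh1 sites of the genome), and 16 were in 1 list (43.2%, beside 55.4%). Of the 45 Pou4f3 sites, 4 were in all 4 lists (8.89%, beside 14.5% of 48289) and 27 in 1 list (60.0%, beside 54.1%). Of the 8 shared Atoh1 sites, 4 were in the Fgfr1 window, 1 of them in the UTR of Whsc1l1, and the others belonged to Fgf3, Fgfr2 and Spry1. The 4 shared Pou4f3 sites belonged to Fgf10, Fgfr1 and Spry4. Without the Fgfr1 window, 4 of 27 Atoh1 sites (14.8%) and 2 of 34 Pou4f3 sites (5.88%) were in all 4 lists. The difference between the factors was not tested. At a −log10 p of 10 or more the counts were 3 of 13 and 2 of 12, and with Fgfr2 as annotated, 14 of 117 and 19 of 111, with the larger share then for Pou4f3. By gene, 4 of the 10 had a site in all 4 Atoh1 lists, beside 31.9% of all protein-coding genes, and 3 had one in all 4 Pou4f3 lists, beside 36.3%. Sites called in the lines with Gfi1 alone (iG+A and iGPA) numbered 3 for Atoh1, at Fgf10, Fgfr2 and Spry1. Those called in the lines with Pou4f3 alone (iP+A and iGPA) also numbered 3, of which 2 were in the Fgfr1 window and 1 in that of Fgfr3. These were 8.11% of the Atoh1 sites in each case, beside 6.69% and 7.91% in the genome. The site in the Fgfr3 window lay 8 bp from a start of Letm1 and 48220 bp from the nearest start of Fgfr3. Of the 2 in the Fgfr1 window, 1 lay 664 bp from a start of Whsc1l1.

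Of the pairs of Atoh1 lists, iP+A and iGPA had the largest overlap, near the 10 genes and in the genome. Near the 10 genes, iP+A and iGPA had 14 of 25 Atoh1 sites in common (56.0%, beside 32.4% in the genome), iG+A and iGPA 14 of 30 (46.7%, beside 30.6%), iAtoh1 and iG+A 11 of 27 (40.7%, beside 29.5%) and iAtoh1 and iGPA 8 of 26 (30.8%, beside 24.7%). For Pou4f3, iPou4f3 and iG+P had 13 of 37 sites in common (35.1%, beside 34.3%), and iP+A and iGPA 5 of 23 (21.7%, beside 34.5%). These lists of a factor differ in length and each is 1 merged sample, so the order of the pairs carries no error.

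In iGPA, 2 sites near these genes held more than 1 factor. Of 35 sites in the 3 iGPA lists, 33 held 1 factor (94.3%, beside 88.2% of the 42185 iGPA sites of the genome), 1 held Atoh1 and Pou4f3, and 1, upstream of Fgfr1, held all 3. Both were in the Fgfr1 window. The 1 gene of 10 with such a site stands beside 29.1% of all protein-coding genes for more than 1 factor and 3.75% for all 3.

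Patterns in the DNA followed the factor pulled down. In the 250 bp around the summits near the 10 genes, an E-box CAGCTG or CAGATG was present at 14 of 14 Atoh1 summits in iAtoh1 and 21 of 25 in iG+A against 14 of 19 in iP+A and 19 of 21 in iGPA. As percentages these are 100% (exact Clopper-Pearson 95% interval 76.8 to 100), 84.0% (63.9 to 95.5), 73.7% (48.8 to 90.9) and 90.5% (69.6 to 98.8). Over all kept summits of those lists the shares were 59.9%, 63.0%, 63.7% and 72.9%, and in windows 1000 bp to each side 27.3% to 28.2%. The lower limit lay above the share of the whole list in iAtoh1 and iG+A and below it in iP+A and iGPA. In 100 bp this no longer held for iG+A, where 17 of 25 summits had an E-box (68.0%, 46.5 to 85.1) beside 51.2% of the list. The intervals treat summits as independent, though summits of the same site recur within and between lists. Differences between the lines were not tested. At the Pou4f3 summits the same E-boxes were present at 17.2% to 35.7%, beside 25.6% to 26.3% in the flanks of the whole lists. In the flanks of the Pou4f3 summits near the 10 genes the share was 10.7% to 28.6%. The gap to these flanks was widest in iP+A, with 5 of 14 summits against 3 of 28 flanks.

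The Pou4f pattern was present at 8 of 21 Pou4f3 summits in iPou4f3 (38.1%) and 12 of 29 in iG+P (41.4%), then 3 of 14 in iP+A (21.4%) and 7 of 14 in iGPA (50%). The shares over the whole lists were 41.9%, 41.9%, 40.0% and 54.5%, and 9.97% to 10.8% in the flanks, and each interval near the 10 genes included the share of the whole list. The Gfi1 letters were at none of the 3 Gfi1 summits, which allows a share of up to 70.8%, beside 7.01% of the whole list.

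**Figure D5:**
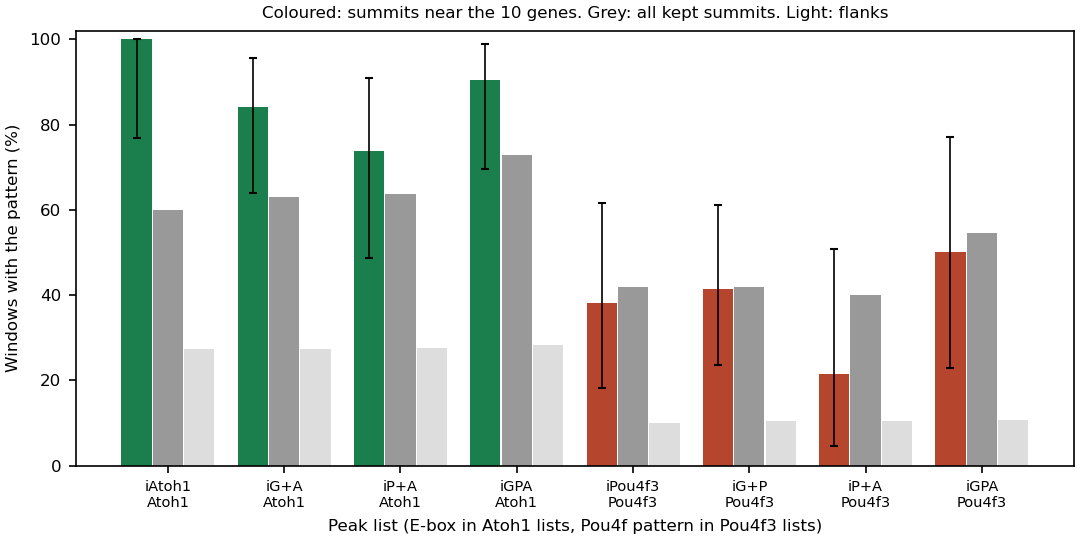
Percentage of 250 bp windows (vertical axis) with an E-box in the 4 Atoh1 lists and with the Pou4f pattern in the 4 Pou4f3 lists (horizontal axis), for summits near the 10 genes (coloured, with exact 95% intervals), all kept summits of the list (grey) and windows 1000 bp to each side of them (light grey). E-boxes are at 73.7% to 100% of Atoh1 summits near the 10 genes and the Pou4f pattern at 21.4% to 50% of their Pou4f3 summits.

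Other genes of the FGF family and pathway were also bound in most cases by the tagged factors. Of 39 listed, 38 were found in the annotation. They were 18 further Fgf genes, 4 receptors and co-receptors, 5 inhibitors, 8 members of the signal chain and 3 target transcription factors. A kept summit of Atoh1 was present at 22 of 38 genes in iAtoh1 and 30 in iG+A against 26 in iP+A and 29 in iGPA, and one of Pou4f3 at 32 in iPou4f3 and 34 in iG+P, then 28 in iP+A and 29 in iGPA. Gfi1 had a summit at 12. These shares, 57.9% to 78.9%, 73.7% to 89.5% and 31.6%, lay above the background of their lists over the 38 genes as a whole. The 5 genes with a summit in all 9 lists were Fgf11, Fgf21, the inhibitors Spred2 and Il17rd, and Frs2. Frs2 is the adaptor that links FGF receptors to the Ras chain. A further 14 had summits in 8 lists: Fgf2, Fgf4, Fgf5, Fgf15, Fgf18, Fgfr4, the co-receptors Kl and Klb, Spred1, the MAP kinase phosphatase Dusp6, Grb2, Sos1, Ptpn11 and Gab1. Over all protein-coding genes, 11.1% had a summit in all 9 lists and 20.0% in 8. Each of the 38 had a summit in at least 1 list, beside 9.0% of all protein-coding genes with none. Among the further Fgf genes, Atoh1 in iAtoh1 had summits at 7 of 18 (38.9%), below the 53.1% of all protein-coding genes. The other Atoh1 lists were also below their background for these Fgf genes. The shares were 61.1% against 65.7% in iG+A and 55.6% against 62.6% in iP+A, then 61.1% against 72.2% in iGPA. The Pou4f3 lists were above theirs, for example 83.3% against 72.8% in iPou4f3.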

How the data were processed

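The members and the gene lists were chosen with earlier results of these data known. Per the study's methods and the submitters' processing notes, the authors trimmed reads with Trimmomatic, aligned them to mm9 with Bowtie2, removed duplicates with Picard and called peaks with MACS2 on merged ChIP against merged input libraries. Their fold enrichment is a ratio, the fragments counted at a summit over the local background, and the deposited −log10 p is that of the peak caller. The deposited summit lists leave out 14.1% to 35.5% of called peaks by a filter not given in the sources used here. The kept summits were used, and the signal column of those lists was not.

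Gene bodies came from the GENCODE M1 annotation of NCBIM37, the assembly of mm9, extended by 50 kb on both sides. A transcript spanning over 10 times the RefSeq length of its gene was left out (71 transcripts). This rule was set after Fgfr2 was seen to have a body of 3010 kb (RefSeq, 104 kb). The longest record of each symbol was used, and Spry3 was not found.

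Windows of 300 bp on summits were joined when 1 bp or more overlapped, following the study. Fragments under a summit were recovered as the whole number that gave both the fold and the −log10 p within 0.001 (in proportion above a −log10 p of 10), which succeeded for all 160 summits. Tandem repeats had at least 80% of positions in 100 bp equal to the position 1 unit on (unit up to 12 bp). Coordinates are counted from 1. Named sites were, for each member, the one of highest fold, sites in 5 or more lists, and iGPA sites with more than 1 factor. Sites named besides these were chosen after their values were seen. Other genes of the FGF family and pathway were named where they had a summit in at least 8 of 9 lists or none. Fgf7, Fgf13, Fgf16 and Fgf17 were named beside Fgf20 after their values were seen. Sequences overlapping an exon were not printed. Neighbouring sites are not independent. Python 3.11.15 with pandas 2.3.3, scipy 1.17.1 and pysam 0.24.0 was used, and counting, joining and pattern search were tested on simulated positions. Alternatives were windows of 10, 100 and 0 kb, a stricter −log10 p (10 or more), every called peak, equal list lengths, nearest starts, other joining windows and other pattern settings.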

Additional observations from a re-analysis of the deposited data

How the results depend on the processing

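No paired analysis was possible because each list was made from merged libraries. Leaving out a replicate was not run, as no list exists per replicate. Values below follow the order of the lists used above: Atoh1 in iAtoh1 and iG+A, then iP+A and iGPA, Pou4f3 in iPou4f3 and iG+P, then iP+A and iGPA, and Gfi1. A count was taken as moved when it changed by over 1.5 times, and most counts moved with the width of the window or the strictness of the threshold.

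The number of the 10 genes with a summit was 6, 7, 6, 6, 6, 6, 5, 3 and 1 within 10 kb, 4, 4, 3, 5, 5, 4, 3, 2 and 0 in the gene body, 3, 5, 4, 6, 5, 6, 2, 5 and 1 at a −log10 p of 10 or more, 7, 9, 7, 7, 8, 8, 6, 7 and 1 by the nearest annotated start, and, for the 8 tagged lists, 3, 3, 3, 3, 1, 2, 1 and 2 at the length of the Gfi1 list. It moved in no list within 100 kb, with all called peaks, or at the length of the shortest tagged list (15568). The share of all protein-coding genes was not computed at these other settings. Whether the 10 genes stayed above it there is not known.

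The number of summits was 7, 12, 7, 10, 10, 10, 5, 4 and 1 within 10 kb, 23, 35, 32, 36, 34, 39, 24, 25 and 4 within 100 kb, 5, 8, 4, 9, 8, 7, 3, 2 and 0 in the gene body, 5, 8, 6, 10, 7, 8, 3, 7 and 2 at the stricter −log10 p, 10, 18, 11, 14, 16, 21, 10, 9 and 1 without Fgfr1, and, for the tagged lists, 14, 16, 14, 14, 17, 12, 12 and 11 at the length of the shortest tagged list and 4, 4, 3, 4, 1, 2, 1 and 2 at that of the Gfi1 list.

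With Fgfr2 as annotated, an alternative added after the data were seen, the summits numbered 35, 54, 56, 79, 59, 72, 43, 44 and 7 and the genes 8, 9, 8, 8, 9, 9, 10, 8 and 3, and that body is 3010 kb long. In the order stricter −log10 p, 10 kb, 100 kb and Fgfr2 as annotated, Atoh1 sites numbered 13, 17, 64 and 117, those in more than 1 list 8, 9, 31 and 60, and those in all 4 lists 3, 3, 12 and 14. Pou4f3 sites numbered 12, 18, 67 and 111, those in more than 1 list 7, 7, 29 and 53, and those in all 4 lists 2, 1, 8 and 19. The iGPA sites numbered 17, 15, 60 and 116, and those with more than 1 factor 1, 0, 3 and 10. Joining windows of 100 and 1000 bp and all called peaks moved none of these 8 counts of sites.

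The Pou4f pattern, in the 4 Pou4f3 lists, was at 5, 8, 2 and 5 summits in 100 bp and at 0, 0, 0 and 1 with no mismatch, and the E-box counts in 100 bp did not change by over 1.5 times, though in iG+A the lower limit (46.5%) fell below the share of the whole list (51.2%). Over all annotated genes the background was 46.6% to 70.8% in the tagged lists and 20.1% for Gfi1. Depth limits what a missing summit means: the lowest fragment count under a summit near the 10 genes was 17, and the Gfi1 list rested on 1 library.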

Other observations

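The printed Pou4f3 sites of Fgfr1 and Fgf20 shared the 12 bp run TAAATAATGCAT. It was noticed after the sequences were seen and has no test. Of the 15 pairs of the 6 printed stretches, 2 more shared a run of 12 bp, Fgfr1 with Fgfr2 (CCCCAGCAACAG) and Fgfr1 with Fgf8 (TCCACTGTGGAG), and the other pairs shared 7 to 10 bp. The run TAAATAATGCAT lay at chr8:26594336-26594347 upstream of Fgfr1, where all 4 Pou4f3 summits and the iGPA Atoh1 summit fell. Near Fgf20 it lay at chr8:41345627-41345638, where the summits of iPou4f3 and iG+P fell. Over all kept summits, the run on either strand was within the 250 bp at 1.96% of Pou4f3 summits in iGPA, 1.59% in iPou4f3, 1.55% in iP+A and 1.23% in iG+P, beside 0.00669% to 0.0187% of the flanks of those lists. Among Atoh1 summits it was at 0.111% in iP+A and 0.114% in iGPA, and at 1 of 20504 in iG+A and 0 of 15568 in iAtoh1, which allows a share of up to 0.0237% (exact 95% interval). For Gfi1 it was at 6 of 3012 summits. At Fgf20 the run overlaps the match ATAAATAAT to the Pou4f pattern, and at Fgfr1 no such match was found.

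Of the 35 sites near the 10 genes that were in 1 list, 32 had no called but unkept peak of another list within reach of the joining window, and 3 had one.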
